A study of Saccharomyces cerevisiae with 6 samples.

Results

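The nucleosomes described here occupy the +3, +4 and +5 positions of yeast genes, counted from the transcription start, and their DNA was cloned as a fragment of core length, that is 130 bp or more and under 160 bp. A fragment was taken where the published catalogue of the library places it at +3, +4 or +5 and does not mark it as terminal, ribosomal or telomeric. It also had to lie at least 30 kb from both chromosome ends and outside the ribosomal DNA array of chromosome XII (R64 build), with at least 10 reads in each gel section. This left 561 fragments from 508 nucleosomes, of 8024 distinct library fragments with counts, of which 8018 reached that number of reads. The nucleosomes comprised 198 at +3, 161 at +4 and 149 at +5, and all 16 chromosomes contributed. The positions of the catalogue ran in the order of the annotated genes: the midpoint of the nucleosome DNA lay a median of 303 bp from the start codon at +3, 474 bp at +4 and 653 bp at +5.

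The library was made from chromatin of the Saccharomyces cerevisiae strain FY251 (MATa, with the auxotrophic alleles his3-∆200 and leu2-D1 as well as trp1-∆63 and ura3-52), a haploid laboratory strain, grown in rich medium and digested with micrococcal nuclease. Each fragment was inserted in the small circular minichromosome YCp1.3, so that every nucleosome was measured in the same minichromosome and not at its own gene. The circles were brought into FY251 yeast cells, and the pooled colonies were incubated in synthetic medium without tryptophan before fixation. The ∆Lk measured is that of these cells. DNA of the pooled transformants was run in an agarose gel, and the inserts were sequenced from the upper gel section (Topo-seq-A, with less negative ∆Lk), from the lower section (Topo-seq-B, with more negative ∆Lk) and from the pool before the gel (NucLib). All 3 samples came from this single pool and each was sequenced in 2 runs, so their spread is that of the sequencing step, while a second culture or gel was not measured.

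A nucleosome wraps DNA in a left-handed turn, and in a closed circle this wrapping is stored as a difference in linking number, ∆Lk, which stays in the DNA once topoisomerases have relaxed the rest and the protein has been removed. Nucleosomes are numbered along the gene from the one next to the transcription start. The first ones are held in regular array by remodellers that work from the promoter, and the regularity fades towards the gene body, where +3, +4 and +5 lie and where RNA polymerase II passes through them in elongation.

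The fragments with the highest and the lowest ∆Lk are shown first, since they give the DNA of both ends of the range. ∆Lk was derived from how the reads of a fragment were shared between the sections. The share of section A was turned into a Z-score and scaled by 0.85, and the average over equally long fragments was taken off. A term of 0.007 per bp of length was then added, and the scale was centred on the mean ∆Lk of the library. Its centre is therefore set by construction, and so is a slope with length. The sequences are from the R64 reference in the direction of transcription, with each AA or TT step in capitals. Names carry the position, and the first 5 were the highest and the last 5 the lowest of the 178 nucleosomes that had 100 or more reads per section and lay to one side of the centre in either run. These reads were required of every fragment of a nucleosome.
RSF2 +4, chrX:662030-662161: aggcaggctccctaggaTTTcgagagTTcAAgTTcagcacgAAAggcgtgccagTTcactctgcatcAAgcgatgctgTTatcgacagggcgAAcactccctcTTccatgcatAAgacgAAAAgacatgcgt
KIN28 +5, chrIV:268350-268491: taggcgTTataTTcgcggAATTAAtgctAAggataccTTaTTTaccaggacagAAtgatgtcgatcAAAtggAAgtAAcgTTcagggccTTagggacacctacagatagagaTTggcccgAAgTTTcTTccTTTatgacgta
THI4 +4, chrVII:780857-781004: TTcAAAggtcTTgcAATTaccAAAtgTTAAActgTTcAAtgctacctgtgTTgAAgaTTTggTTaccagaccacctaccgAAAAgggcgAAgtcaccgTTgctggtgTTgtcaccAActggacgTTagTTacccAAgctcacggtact
YGL114W +4, chrVII:293724-293871: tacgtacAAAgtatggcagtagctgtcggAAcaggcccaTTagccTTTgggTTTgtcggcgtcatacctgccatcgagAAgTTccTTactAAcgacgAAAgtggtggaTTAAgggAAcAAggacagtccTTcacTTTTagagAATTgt
KEL1 +5, chrVIII:416538-416675: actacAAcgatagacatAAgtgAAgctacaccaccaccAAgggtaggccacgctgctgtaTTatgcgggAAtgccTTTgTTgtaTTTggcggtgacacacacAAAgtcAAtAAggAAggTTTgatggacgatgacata
SWH1 +3, chrI:192890-193041: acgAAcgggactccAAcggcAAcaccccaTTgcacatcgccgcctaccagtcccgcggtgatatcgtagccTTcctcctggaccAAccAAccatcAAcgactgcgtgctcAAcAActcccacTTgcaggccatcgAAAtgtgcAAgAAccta
HRK1 +3, chrXV:824771-824918: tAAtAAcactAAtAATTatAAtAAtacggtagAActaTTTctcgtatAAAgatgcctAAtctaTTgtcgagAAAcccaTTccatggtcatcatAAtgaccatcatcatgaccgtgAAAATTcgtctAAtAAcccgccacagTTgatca
GPD1 +5, chrIV:412511-412666: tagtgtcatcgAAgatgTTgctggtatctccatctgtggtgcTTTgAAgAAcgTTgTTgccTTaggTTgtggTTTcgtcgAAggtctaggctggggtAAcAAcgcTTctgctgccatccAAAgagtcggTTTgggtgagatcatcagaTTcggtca
TES1 +4, chrX:467560-467705: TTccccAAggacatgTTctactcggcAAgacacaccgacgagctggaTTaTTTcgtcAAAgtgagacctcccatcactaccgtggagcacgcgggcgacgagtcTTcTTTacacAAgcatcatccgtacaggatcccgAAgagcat
ORC1 +3, chrXIII:142451-142583: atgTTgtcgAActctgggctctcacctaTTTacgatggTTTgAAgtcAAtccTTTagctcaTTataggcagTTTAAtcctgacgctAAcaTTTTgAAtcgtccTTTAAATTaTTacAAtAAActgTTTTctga

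All 10 sequences have their midpoint in a coding exon of the gene named. None of these 10 holds AAAAA or TTTTT, a motif searched on the sequence as printed so that both strands are covered. The ends of the range as a whole did not lack it: it was present in 46.1% of the 102 nucleosomes with the lowest ∆Lk and in 36.3% of the 102 with the highest, beside 42.7% of all +3 to +5 nucleosomes and 37.9% of the 4864 library fragments of core length. The G + C content of the 5 highest was 51.5% at RSF2, 42.3% at KIN28, 45.3% at THI4, 46.6% at YGL114W and 45.7% at KEL1, all above the member mean of 41.9%. The 5 lowest spread more widely, with 56.6% at SWH1, 34.5% at HRK1, 48.7% at GPD1, 52.7% at TES1 and 35.3% at ORC1.

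The runs contained 2073823 and 1698433 reads in Topo-seq-A, 1480629 and 1865197 in Topo-seq-B and 851697 and 1748161 in NucLib. These are lower bounds, since every deposited list was cut at the same number of lines. The +3 to +5 fragments held 7.28% of the reads of Topo-seq-A, 4.8% of those of Topo-seq-B and 9.33% of those of NucLib. Of the reads of all fragments of their length range they held 9.39%, 10.2% and 13.7% in these samples. The 3 most abundant members held 27.5%, 25.6% and 26% of the member reads. Without those 3, the members held 5.27%, 3.57% and 6.9% of all reads. A member fragment had a median of 102 reads in Topo-seq-A (range 10 to 33847), 70 in Topo-seq-B (10 to 21211) and 103 in NucLib (10 to 25865). Over the members, the counts of the 2 runs of a sample differed by more than sampling noise (chi-square per degree of freedom 1.22 in Topo-seq-A, 1.24 in Topo-seq-B and 1.20 in NucLib, n = 561). The runs were kept separate in the test of enrichment and were summed for ∆Lk.

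Core-length +3 to +5 fragments were found more often in section A than in section B. By the edgeR quasi-likelihood test over all library fragments, 260 of the 561 (46.3%) were enriched in section A at an adjusted p under 0.05 and 37 (6.6%) in section B, and 264 were not called. The background was 27.8% enriched in section A and 20.5% in section B over all library fragments, and 41.3% in section A and 6.25% in section B over all those of core length. The shares of the members were thus near those of any fragment of their length. DESeq2, with its own size factors, called 105 members enriched in A and 18 enriched in B. Its shares over all library fragments are not given, so these 2 counts do not compare the members with the library. The test covers only the spread between sequencing runs.

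The 3 positions gave similar shares. At +3, 107 of 233 fragments (45.9%) were enriched in section A and 19 (8.15%) in section B. For +4 these were 91 of 190 (47.9%) and 10 (5.26%), and at +5 they were 74 of 161 (46.0%) and 8 (4.97%). The log2 ratio of the share in section A to that in section B had a median of 0.45 at +3, 0.54 at +4 and 0.49 at +5, beside 0.48 over all library fragments of core length. A fragment listed at a pair of positions counts at both.

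The shares changed with fragment length among the members, as they did in the library. Of the 104 member fragments of 130 to 139 bp, 25 (24.0%) were enriched in section A and 25 (24.0%) in section B, beside 26.4% and 16.3% of library fragments of these lengths. Of the 177 fragments of 140 to 149 bp, 105 (59.3%) were enriched in section A and 6 (3.39%) in section B, beside 49.4% and 4.2%. Of the 280 fragments of 150 bp and over, 130 (46.4%) were enriched in section A and 6 (2.14%) in section B, beside 41.9% and 3.19%. Most of the +3 to +5 fragments called for section B were therefore shorter than 140 bp.

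**Figure D1:**
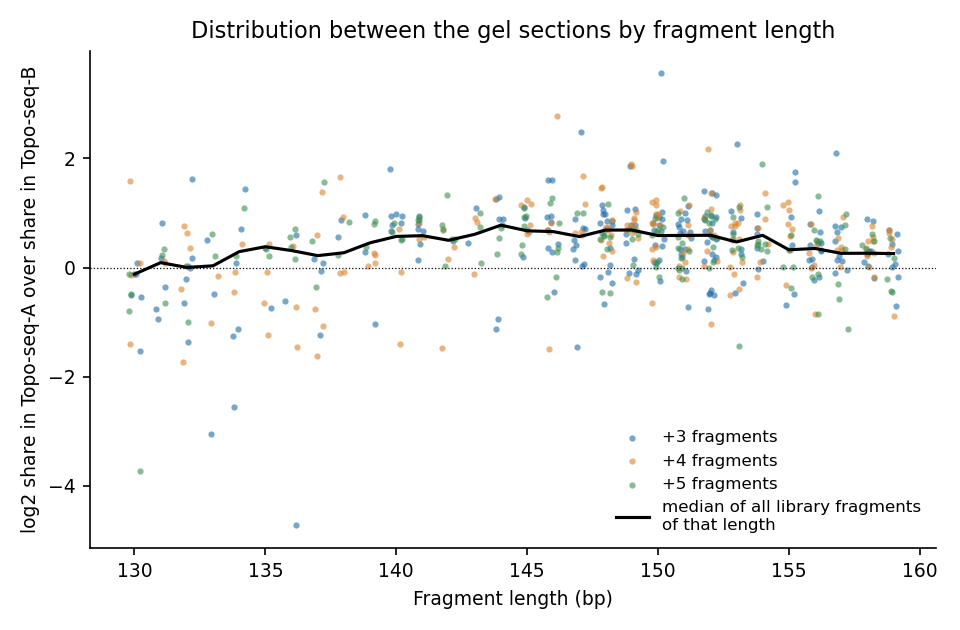
Fragment length in bp (x axis) against the log2 ratio of the share of reads in Topo-seq-A to that in Topo-seq-B (y axis), for the 561 +3 to +5 fragments coloured by position, with the median of all library fragments of each length as a line. The points of all 3 positions spread around the line, and the fragments far below 0 are mostly under 140 bp.

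The mean ∆Lk of the +3 to +5 nucleosomes was −1.27 ± 0.239 (SD, n = 508 nucleosomes), and 259 of them (51%) lay above the centre of the scale. Each nucleosome was counted once, with the mean of its fragments, not weighted by their reads. ∆Lk averaged −1.27 ± 0.263 at +3 (SD, n = 198), −1.258 ± 0.226 at +4 (n = 161) and −1.28 ± 0.219 at +5 (n = 149). The medians were −1.258 at +3, −1.24 at +4 and −1.264 at +5. The interquartile range ran between −1.41 and −1.14 at +3, between −1.38 and −1.12 at +4 and between −1.38 and −1.13 at +5, so that the 3 distributions overlapped widely.

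No difference between the positions passed ANOVA with the Tukey test, which the study's methods use for such classes (ANOVA over n = 198, 161 and 149 nucleosomes, p = 0.796). The difference was −0.0119 for +3 minus +4 (95% interval −0.0716 to 0.0478, n = 198 and n = 161, Tukey p = 0.886). It was 0.00603 for +3 minus +5 (−0.0549 to 0.0670, p = 0.971) and 0.0179 for +4 minus +5 (−0.0460 to 0.0818, n = 161 and n = 149, p = 0.787). The intervals cover the spread among nucleosomes of one gel. In 22 genes 2 positions share a fragment, which then enters both groups, so the groups are not fully independent. Without fragments listed under 2 nucleosomes the 3 differences were −0.00832, 0.0119 and 0.0202, with Tukey p of 0.954, 0.911 and 0.785. The signs of +3 minus +5 and +4 minus +5 were not stable: with at least 50 reads in each section they were −0.0246 and −0.0186.

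The neighbouring classes, chosen by the same rule but without any fragment that is also a +3 to +5 member, gave similar means. ∆Lk averaged −1.27 ± 0.239 at +3 to +5, −1.27 ± 0.235 at +2 (SD, n = 266) and −1.27 ± 0.208 at +6 and beyond (n = 833). The difference was −0.00119 for +3 to +5 minus +2 (95% interval −0.0407 to 0.0383, n = 508 and n = 266, Tukey p = 0.997) and 0.00614 for +3 to +5 minus +6 and beyond (−0.0232 to 0.0355, p = 0.876). The comparison with +2 turned on how nested fragments are counted. With each fragment once it was 0.0815 (0.0399 to 0.123, n = 561 and n = 384 fragments, Tukey p = 1.39e-05). Fragments of a nucleosome are not independent of each other, so this p and interval do not hold as a test of the classes. The +2 class held 384 fragments in 266 nucleosomes. Of these +2 fragments 17.7% were enriched in section B, against 4.51% when only the most abundant fragment of each +2 nucleosome was taken. By that count, 5.91% of the +3 to +5 nucleosomes and 2.88% of those at +6 and beyond were enriched in section B, and 51.4%, 51.9% and 48.0% in section A at +3 to +5, +2 and +6 and beyond.

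**Figure D2:**
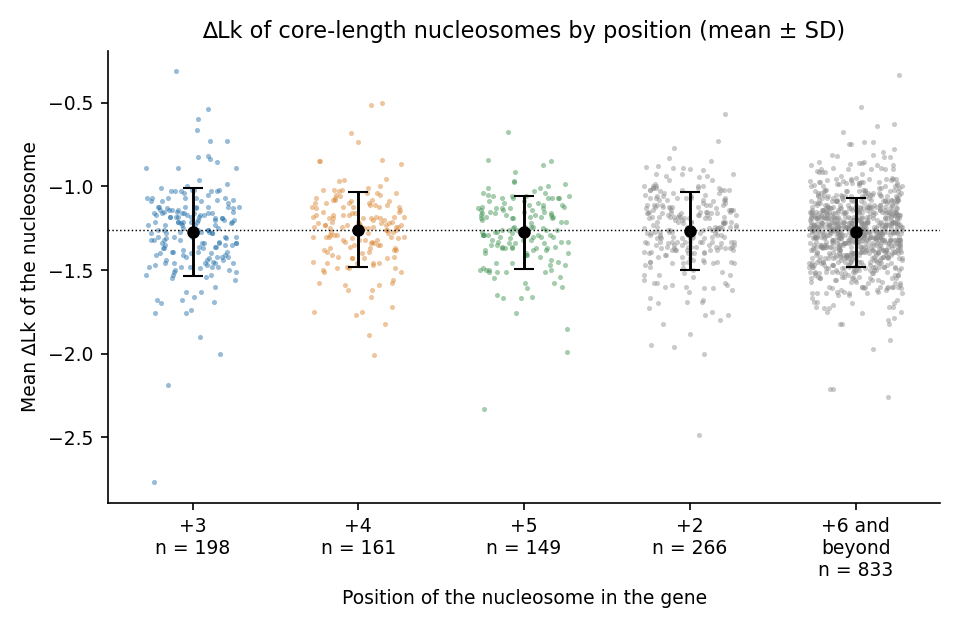
Mean ∆Lk of each nucleosome (y axis) at +3, +4 and +5 and, in grey, at +2 and at +6 and beyond, with the mean and SD of each class in black and the centre of the scale as a dotted line. All 5 classes have a mean between −1.258 and −1.28 with overlapping spreads.

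The spread among single nucleosomes was wider than the counting error. ∆Lk ranged from −2.77 to −0.311 over the 508 nucleosomes, and the counting error of a fragment had a median of 0.0834 (range 0.00463 to 0.233). The squared counting error averaged 16.5% of the variance among nucleosomes. Reads of one PCR product are not separate molecules, so these errors cover counting only. In run 1 alone and run 2 alone, the values of a nucleosome correlated with Pearson r = 0.705 and Spearman rho = 0.641 across the 508 nucleosomes, which share 1 pool and the fragment lengths, and 388 were above, or below, the centre of the scale in either run. For the 212 nucleosomes with 100 or more reads per section in every fragment, r was 0.857 and 178 kept their side. The ∆Lk of these 212 ranged from −2.19 to −0.849 with an SD of 0.170.

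**Figure D3:**
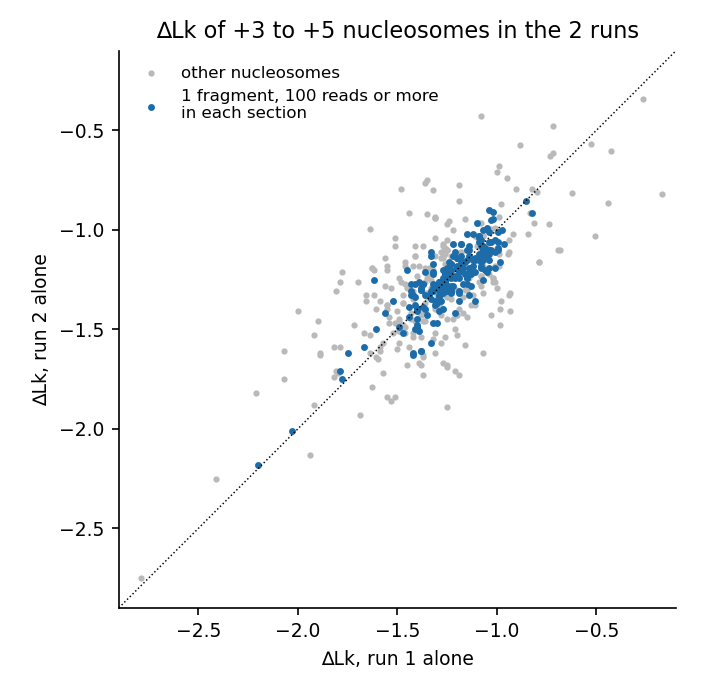
∆Lk of each +3 to +5 nucleosome in run 1 alone (x axis) against run 2 alone (y axis), with nucleosomes of 1 fragment and 100 or more reads per section in blue, the others in grey and the line of equality dotted. The well-covered nucleosomes lie closer to the line than the others.

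Of those 178 nucleosomes, the 4 highest and the 4 lowest ∆Lk of each position are given. At +3, the highest was that of YCR050C at −0.988 ± 0.0640 (counting SE), followed by TPS3, a regulatory subunit of the trehalose synthase complex, at −1.02 ± 0.0371. ECM27, a putative cation exchanger, had −1.03 ± 0.0475 and VMA8, a subunit of the vacuolar proton pump, had −1.03 ± 0.0495. These 4 values do not differ beyond their counting errors.

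The lowest +3 nucleosome lay in ORC1, which encodes the largest subunit of the origin recognition complex. Its fragment had 214 and 184 reads in the 2 runs of Topo-seq-A, 1258 and 1645 in those of Topo-seq-B and 256 and 527 in those of NucLib. It was far scarcer in section A in both runs. The log2 fold change of section A over section B was −3.04 (edgeR, adjusted p = 1.9e-33), and ∆Lk was −2.19 ± 0.0236, with −2.20 in run 1 alone and −2.18 in run 2 alone. The next were HRK1, a protein kinase, at −1.74 ± 0.0305, SWH1, an oxysterol-binding protein homologue, at −1.68 ± 0.0370, and RPA190, the largest subunit of RNA polymerase I, at −1.63 ± 0.0653. Their log2 fold changes were −0.68, −0.47 and −0.48, with edgeR adjusted p of 1.4e-07, 0.0006 and 0.037.

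At +4, the highest was RSF2, a zinc-finger regulator of growth on glycerol, whose fragment had 2546 and 2075 reads in Topo-seq-A, 1064 and 1352 in Topo-seq-B and 847 and 1716 in NucLib. Section A held more in both runs, with a log2 fold change of 0.76 (edgeR, adjusted p = 2e-19), and ∆Lk was −0.849 ± 0.0132. THI4, of thiamine synthesis, had −0.960 ± 0.0536, YGL114W had −0.969 ± 0.0538 and RPN8, a subunit of the proteasome lid, had −1.01 ± 0.0491. The lowest +4 nucleosome lay in TES1, a peroxisomal thioesterase. Its fragment had 57 and 49 reads in Topo-seq-A, 119 and 146 in Topo-seq-B and only 1 and 11 in NucLib, a log2 fold change of −1.49 (edgeR, adjusted p = 8.7e-10) and a ∆Lk of −2.01 ± 0.0580. The following 3, PXP2 at −1.51 ± 0.0628, CEM1 at −1.47 ± 0.0588 and YFL012W at −1.46 ± 0.0623, were not called for either section. The fragments of PXP2 and YFL012W are also listed at +3, with the same values.

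At +5, the highest was KIN28, the kinase of the general transcription factor TFIIH. It had 390 and 295 reads in Topo-seq-A, 101 and 140 in Topo-seq-B and 151 and 225 in NucLib, a log2 fold change of 1.33 (edgeR, adjusted p = 1.6e-13) and a ∆Lk of −0.871 ± 0.0382. KEL1, a kelch-repeat protein of cell morphology, had −0.976 ± 0.0200, YML082W had −0.987 ± 0.0612 and YDL144C had −1.01 ± 0.0576. The lowest lay in GPD1, the glycerol 3-phosphate dehydrogenase of the osmotic response, with 82 and 66 reads in Topo-seq-A, 108 and 130 in Topo-seq-B and 4 and 15 in NucLib. Its log2 fold change was −0.86 (edgeR, adjusted p = 2.6e-05) and its ∆Lk −1.76 ± 0.0547. TIP41, of the TOR signalling pathway, followed at −1.51 ± 0.0642, then MSH1, a mitochondrial DNA repair protein, at −1.46 ± 0.0468 and CAB1, the pantothenate kinase, at −1.41 ± 0.0443, and none of these 3 was called.

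All of the 12 highest were enriched in section A, and 6 of the 12 lowest were enriched in section B. That follows from how they were chosen and is a description. The DNA of the 12 highest was 132 to 152 bp long with 39.5% to 51.5% G + C, and that of the 12 lowest was 133 to 156 bp long with 34.2% to 56.6%. AAAAA or TTTTT was present in 2 of the highest and in 1 of the lowest.

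**Figure D4:**
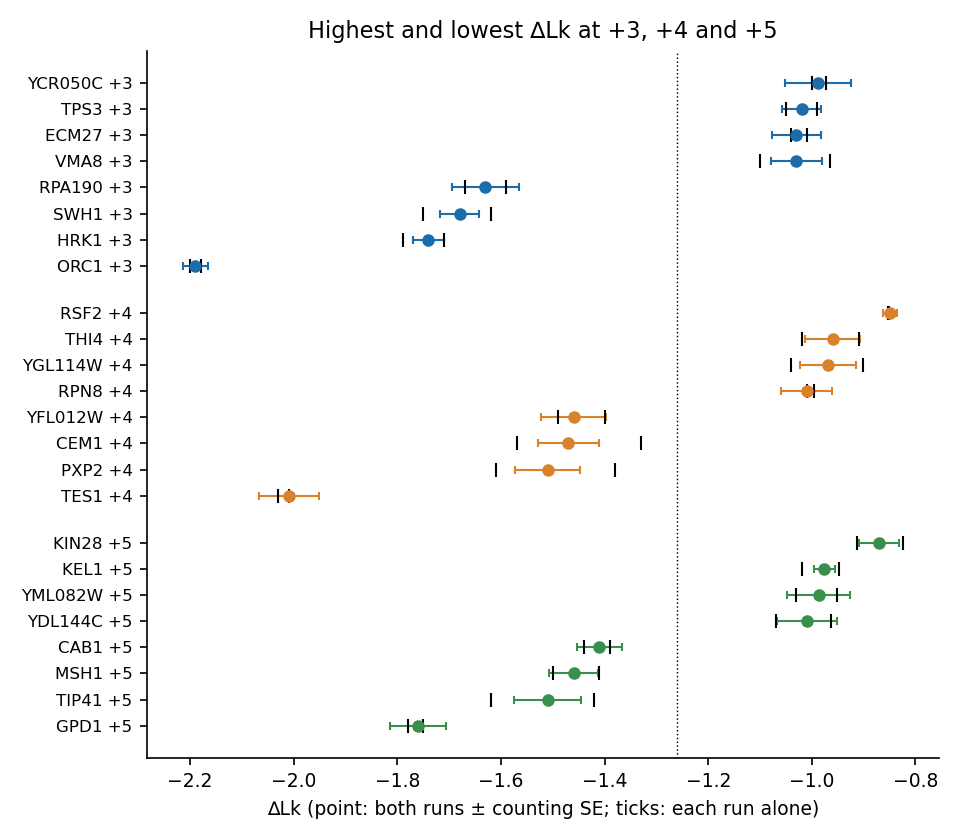
∆Lk (x axis) of the 4 highest and 4 lowest nucleosomes at each of +3, +4 and +5 among the well-covered nucleosomes, as points with the counting SE, with each run alone as a black tick and the centre of the scale as a dotted line. ORC1 at −2.19 and TES1 at −2.01 stand below the other named nucleosomes, and both of their runs lie close to the point.

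Below this number of reads the range was wider. The ends of the whole range, named after their values were seen, were YBR085C-A at +3 with −2.77 ± 0.110 and LDS1 at +3 with −0.311 ± 0.0552. YBR085C-A had 6 and 6 reads in Topo-seq-A, 118 and 163 in Topo-seq-B and 11 and 38 in NucLib. LDS1, a gene of the spore wall, had 434 and 389 reads in Topo-seq-A, 23 and 39 in Topo-seq-B and 202 and 439 in NucLib. ILV2, the first enzyme of branched-chain amino acid synthesis, had the next lowest value, −2.33 ± 0.0937 at +5. The edgeR adjusted p was 9.9e-19 for YBR085C-A, 7.8e-24 for LDS1 and 1.7e-16 for ILV2.

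TES1, GPD1 and ILV2 were also scarce in the pool before the gel. The log2 ratio of the NucLib share of a member fragment to the mean of its shares in sections A and B had a median of 0.68, with 5% of the fragments below −0.27. It was −3.54 for TES1, −2.92 for GPD1 and −2.23 for ILV2, and −2.76 for GLO1 at +5. ARP7 at +3 had −2.00 and PGA1 at +4 had −1.52. The noncoding transcript SUT510 at +3, with a ∆Lk of −0.539 near the high end, had −1.23. It had 77 reads in Topo-seq-A, 22 in Topo-seq-B and 15 in NucLib. YBR085C-A, the lowest of all members, had −1.21. Of these fragments, only SUT510 had more reads in section A than in section B. All were singled out after their values were seen. The part of this scarcity in their ∆Lk was not tested. Across the 561 fragments, this ratio and ∆Lk had Pearson r = 0.0832 and Spearman rho = −0.0701, over fragments of a shared pool.

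Most nucleosomes were represented by 1 fragment (486 of 508), 17 by 2 or 3 and 5 by 4 or more. In 4 of these 5, all but KRE1, every other fragment had under 1 in 50 of the NucLib reads of the most abundant one. In FCP1, the phosphatase of the RNA polymerase II C-terminal domain, the +4 nucleosome had 25 fragments. The most abundant, 143 bp at 820609 to 820751 on chromosome XIII, had 13835 and 11188 reads in Topo-seq-A, 5574 and 6904 in Topo-seq-B and 5881 and 11902 in NucLib. Its ∆Lk was −1.13, and the other 24, with a median of 18.5 reads in Topo-seq-A and 25 in Topo-seq-B, averaged −1.38. All of these 24 shared exactly one end with it, 12 the start and 12 the end.

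The same held in PRB1, which encodes vacuolar proteinase B, and in MIC26, of the mitochondrial cristae complex. The most abundant +3 fragment of PRB1 had a ∆Lk of −1.17 with 9020 and 7633 reads in Topo-seq-A, 3305 and 4179 in Topo-seq-B and 6251 and 13239 in NucLib, and 15 others averaged −1.52. That of MIC26 had −0.954 with 18842 and 15005 reads in Topo-seq-A, 9426 and 11785 in Topo-seq-B and 8259 and 17606 in NucLib, and 7 others averaged −1.35. All of the other fragments in both genes shared an end with the most abundant one. By the unweighted mean of their fragments, the nucleosomes entered the position classes with −1.50 for PRB1, −1.30 for MIC26 and −1.37 for FCP1.

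In PRO3, of proline synthesis, the most abundant +3 fragment had −1.31 and 3 others averaged −1.34, within their counting errors. KRE1, of cell wall glucan assembly, differed in that 5 of its 7 other +5 fragments shared an end, and 3 of the 7 were abundant too, with 2790, 805 and 748 reads in Topo-seq-A against 9162 for the most abundant. These 3 had ∆Lk of −1.19, −1.37 and −1.20. Its most abundant fragment had −1.07 and the 7 others averaged −1.23. The fragments of a nucleosome are not independent of each other, so these differences carry no test. Without these 5 nucleosomes, 251 of 500 member fragments (50.2%) were enriched in section A and 30 (6%) in section B. All library fragments of core length, with nested ones kept, had 41.3% and 6.25%. Other fragments among the 5 with most NucLib reads came from TOH1 at +5 (∆Lk −1.24) and MTG1 at +4 (−1.15).

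**Figure D5:**
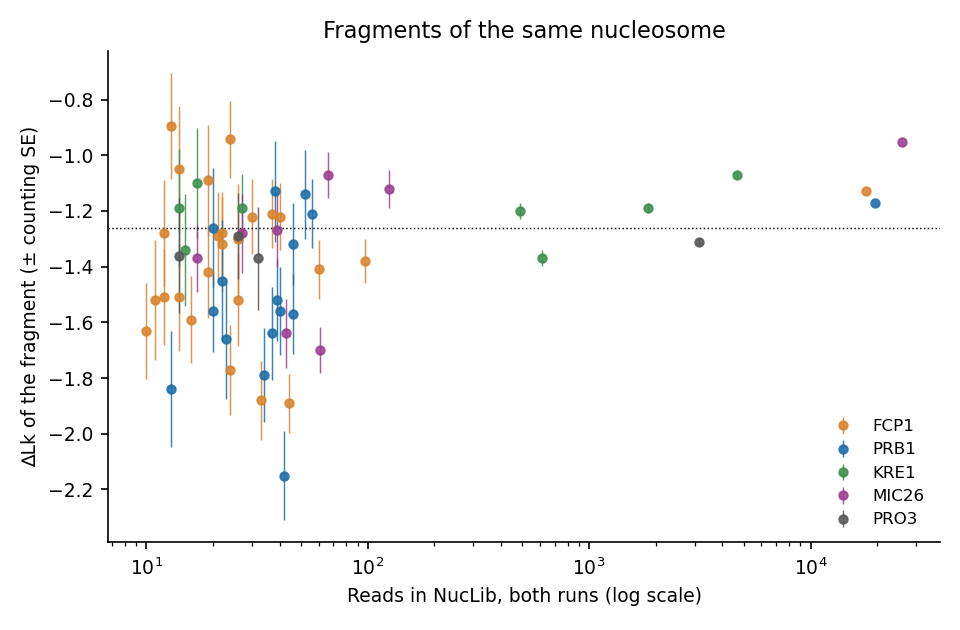
NucLib reads of each fragment on a log scale (x axis) against its ∆Lk with the counting SE (y axis), for the 5 nucleosomes with 4 or more fragments, with the centre of the scale dotted. The most abundant fragment of FCP1, PRB1 and MIC26 lies at the right between −0.954 and −1.17, and most fragments with few reads lie below it.

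Of the 508 nucleosomes, 479 lay in 442 protein-coding genes, 26 in noncoding transcripts and 3 under a gene name that was not legible in the catalogue's text. The midpoint fell in a coding exon in 473 of the 479, and the whole fragment lay in 1 coding exon in 450. By strand of the gene, ∆Lk had a mean of −1.28 ± 0.233 (SD, n = 233) for genes on the forward strand and −1.27 ± 0.243 (n = 246) on the reverse. By distance of the midpoint from the start codon, ∆Lk averaged −1.28 ± 0.223 under 200 bp (SD, n = 36), −1.262 ± 0.275 from 200 to 400 bp (n = 180), −1.28 ± 0.220 from 400 to 600 bp (n = 141) and −1.264 ± 0.205 from 600 bp (n = 120). Across chromosomes the mean lay between −1.18 ± 0.403 over the 8 nucleosomes of chromosome I and −1.32 ± 0.306 on chromosome II (n = 37). These means differed by less than the SD within each class.

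In 37 genes 2 of the positions were present, and in no gene all 3. In 22 of these genes both nucleosomes were represented by a shared fragment, as in RPL3, a protein of the large ribosomal subunit, whose +3 and +4 nucleosomes both had −1.14, and CDC53, the cullin of the SCF ubiquitin ligase, whose +4 and +5 both had −1.32. Separate fragments were present in 15 genes. Of these, 3 had at least 50 reads in each section at both positions. PGK1, phosphoglycerate kinase of glycolysis, had −1.20 ± 0.0893 (counting SE) at +3 and −1.16 ± 0.0327 at +4. GYP1, a GTPase activator of the Golgi, had −1.263 ± 0.0494 at +3 and −1.19 ± 0.0158 at +4. SBP1, an RNA-binding protein, had −1.21 ± 0.0881 at +4 and −1.30 ± 0.0318 at +5. The largest difference within these 3 genes was 0.092, in SBP1. In the 12 others, with fewer reads, the difference reached 0.811 in size (YEL025C, −0.840 ± 0.136 at +4 and −1.65 ± 0.120 at +5). ALR1, a magnesium transporter that shares a fragment between positions and has a second one, had −0.954 at +4 and −1.17 at +5.

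By gene group, the larger lists had medians near that of the members as a whole, −1.255. The 20 lists were made by gene symbol, and 12 of them had at least 5 nucleosomes, with medians between −1.27 and −1.16. The 8 smaller lists, of 1 to 4 nucleosomes, had medians between −1.63 for RNA polymerase subunits, which is RPA190 alone, and −1.01 for the proteasome, which is RPN8 alone. No list was tested. Of the 8 nucleosomes of genes of the secretory pathway the median was −1.16, 6 had their most abundant fragment enriched in section A and none in section B, beside 51.4% and 5.91% of all members. The highest of those with 50 or more reads per section were COG8, a Golgi tethering subunit, at −1.07 and USO1, a vesicle tether, at −1.13, and the lowest were APL2, a clathrin adaptor subunit, at −1.264 and SEC4, the GTPase of exocytosis, at −1.23. All of these values lay inside the range of the members.

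DNA replication and repair genes had 16 nucleosomes with a median of −1.27, 8 enriched in section A and 1, ORC1, in section B. Beside this and the list counts that follow, 51.4% and 5.91% of all member nucleosomes were enriched in A and B by their most abundant fragment. Of all library fragments of core length, 41.3% and 6.25% were. PSF3, of the GINS complex, had −1.16 ± 0.0366 and DUN1, a checkpoint kinase, had −1.47 ± 0.0885. DUN1 had −1.27 in run 1 alone and −1.67 in run 2 alone. Genes of respiration had 14 nucleosomes with a median of −1.27, 8 enriched in section A and 1 in section B. They ran between COX5A, a cytochrome oxidase subunit, at −1.09 ± 0.0303 and ATP12, an assembly factor of the ATP synthase, at −1.39 ± 0.0352 among those with at least 50 reads. Amino acid synthesis had 11 with a median of −1.23 and an SD of 0.396, 6 and 1 enriched. The highest with at least 50 reads were LEU1, of leucine synthesis, at −0.891 ± 0.0810 and GDH1, glutamate dehydrogenase, at −1.12 ± 0.00851. SHM1, at −1.23 ± 0.0293, was the lowest of those. With fewer reads, ILV2 at −2.33 was the lowest of the list and its 1 nucleosome enriched in section B. The range of each list overlapped those of the others.

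Cell cycle genes had 10 nucleosomes with the median of all members, 4 enriched in section A and 1 in section B, beside 51.4% and 5.91% of all members. Among them were CDC8, thymidylate kinase, at −1.21 ± 0.0396 and APC1, of the anaphase-promoting complex, at −1.34 ± 0.0833. The runs of APC1 differed by more than this error, with −1.07 in run 1 alone and −1.62 in run 2 alone. The 14 nucleosomes of genes with cell wall names had a median of −1.21, with DAN4, a mannoprotein, at −0.911 ± 0.0673, ECM27 as above, and KTR1, a mannosyltransferase, at −1.42 ± 0.0554. ECM27 and ECM2, a splicing factor with −1.42 ± 0.0953, are in this list by their symbols only. Remodellers, histone chaperones and topoisomerases gave 8 nucleosomes with a median of −1.20. With 50 or more reads per section they ran between RTT106, a histone chaperone, at −1.04 ± 0.0919 and RSC2, of the RSC remodeller, at −1.58 ± 0.0857. The lowest of the list, with fewer reads and named after its value was seen, was LDB7, also of RSC, at −1.75 ± 0.139, which was enriched in section B. Ribosome biogenesis gave 8 with a median of −1.23, from RRP6, of the nuclear exosome, at −1.06 ± 0.0365 to UTP7, of the small-subunit processome, at −1.46 ± 0.0770.

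Vacuolar and autophagy genes gave 6 nucleosomes with a median of −1.27, from VMA8 to ATG23, an autophagy protein, at −1.54 ± 0.0908. Genes with symbols like those of mitochondrial ribosomal proteins gave 6 with a median of −1.25, including MRPL1, a large-subunit protein, at −1.23 ± 0.0590. MRX18 is in this list by its symbol only. Transporters gave 5 with a median of −1.25, from AGP2 at −1.08 ± 0.0371 to DIP5, an amino acid permease, at −1.29 ± 0.0896. The 26 nucleosomes of noncoding transcripts had the median of all members, with 14 enriched in section A and 1 in section B, beside 51.4% and 5.91% of all members. They ran between Unit239 at −1.02 ± 0.0413 and CUT199 at −1.53 ± 0.0738 among those with at least 50 reads.

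The base composition of the DNA was related to ∆Lk only weakly. The G + C content was 42.7% ± 5.24 at +3 (SD, n = 198), 41.6% ± 5.03 at +4 and 41.2% ± 5.20 at +5, against 41.9% ± 5.50 at +2 and 40.8% ± 4.78 at +6 and beyond. Across the 508 nucleosomes it had Pearson r = 0.195 and Spearman rho = 0.246 with ∆Lk, and r = 0.185 and 0.166 in the 2 runs alone. The share of AA and TT steps, 18.6% ± 4.75 over the members, had r = −0.190. With the nucleosomes in 5 groups by ∆Lk, the lowest 102 (−2.77 to −1.43) had 40.6% ± 5.80 G + C and 20.0% ± 5.16 AA or TT steps, and the highest 102 (−1.10 to −0.311) had 43.7% ± 4.99 and 17.0% ± 4.21. These correlations are descriptions over fragments of 1 pool, and the spreads of the 5 groups overlapped.

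The sign held at each position, with r of 0.136 at +3, 0.262 at +4 and 0.226 at +5 for G + C content, and 0.137 over the 212 well-covered nucleosomes. Nucleosomes with AAAAA or TTTTT averaged −1.29 ± 0.207 (SD, n = 217) and had 39.8% G + C, and those without averaged −1.25 ± 0.259 (n = 291) with 43.5%. Length had r = −0.191 with ∆Lk, which the scale contains by its term of 0.007 per bp, and r = 0.0300 without that term. By length, ∆Lk averaged −1.22 ± 0.363 at 130 to 139 bp (SD, n = 77), −1.22 ± 0.221 at 140 to 149 bp (n = 156) and −1.31 ± 0.196 at 150 bp and over (n = 275). The SD was widest in the shortest fragments, where most of those enriched in section B lay.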

How the data were processed

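The deposited values are raw read counts per distinct fragment and run, not normalized. The authors trimmed adaptors with Cutadapt and aligned read pairs to R64 with Bowtie 1.1.2, and BWA, SAMtools and Picard are named as well in the submitters' processing notes. Counts of each fragment (its chromosome, start and end, counted from 0 in the files and from 1 here) were matched to the study's catalogue, whose gene positions chose the members. The catalogue's position list was read from text made from page images. It gave 8169 legible rows, and rows that were not legible were not used, so further members may be missing here. Its nucleosome fuzziness values are not used here. The 2 runs were summed for ∆Lk. Its counting SE is by the delta method. For enrichment, the quasi-likelihood test of edgeR 4.0.16 was run with list totals as library sizes and Benjamini-Hochberg adjustment over 8018 fragments, and DESeq2 1.42.0 was an alternative. Position classes were compared by ANOVA and the Tukey test with scipy 1.17.1 on 1 value per nucleosome. Both steps were also run on simulated counts with known changes, as a check of the calculation. The shifts set there between positions were larger than the differences found here, so that check does not show the power for differences of this size. Other tools were R 4.3.3, Python 3.11.15, numpy 2.4.6, pandas 2.3.3 and matplotlib 3.10.9. Gene names and sequences are from RefSeq's R64 reference.

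Named nucleosomes are the 4 highest and 4 lowest of each position that had 100 or more reads per section and kept their side of the centre, those with 4 or more fragments, genes with 2 positions of at least 50 reads, from each list of 5 or more its 2 highest and 2 lowest (some are given) and the 5 fragments with most NucLib reads. The minimum of 100 reads applied to every fragment of a nucleosome. The members, the lists and this rule of naming were chosen with earlier results of these data known. Alternatives were other scalings, read minimums, single runs, units, length corrections and subsets of fragments, and a count without the nucleosomes of many fragments was added after the data were seen.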

Additional observations from a re-analysis of the deposited data

How the results depend on the processing

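Each of the 5 differences in mean ∆Lk was recomputed under 19 alternatives, and of these 95 values 1 passed the Tukey threshold and 14 changed sign. The one that passed was +3 to +5 minus +2 with each fragment once, 0.0815, where nested fragments that are not independent were entered as separate values. For that difference the sign also turned in run 1 alone (0.00181), with at least 50 reads in each section (0.00668), without the shift per bp (0.0005), at 140 to 150 bp only (0.0130) and without nucleosomes listed for 2 or more transcripts (0.0051). Leaving out 1 run gave −0.00376 to 0.00137 for it. For +3 minus +5 the sign turned in run 1 alone (−0.0073), with at least 50 reads (−0.0246) and with each fragment once (−0.0139). For +4 minus +5 it turned with at least 50 reads (−0.0186), and for +3 to +5 minus +6 and beyond in run 1 alone (−8.86e-05) and with no subtraction of the mean of equal length (−0.00151). Without 1 run, +3 minus +5 was −0.00808 to 0.0247. The cause was not tested. Members enriched in section A numbered 260, and 184 with TMM, 105 with DESeq2 and 203 with at least 50 reads, where 326 members were tested. Those enriched in section B numbered 37, and 47, 18 and 20. Shares over all library fragments are given only for the setting that called 260 and 37, so the other counts do not compare the members with the library. The median log2 ratio of all fragments was −0.02 with TMM and 0.17 without it. Without 1 run the counts were 210 to 230 and 26 to 29. With the run number as a replicate block they were 269 and 37. The deviations of same-numbered runs of the sections had r = 0.0485 over 561 members and r = 0.184 over the 225 with 100 or more reads per section, so some pairing of the runs is possible. The median member fragment had 102 reads in Topo-seq-A, which limits single values. The count without the 5 nucleosomes of 4 or more fragments was chosen after seeing the data.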
